A study of Mus musculus with 6 samples.

Results

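The T cell checkpoint receptors described here are 7 genes, taken by symbol from the 32285 genes of the 6 count matrices: Pdcd1, Ctla4, Havcr2, Lag3, Tigit, Cd160 and Cd244a. All 7 were found, each under a single identifier. They were followed in tumour Treg cells (regulatory T cells), conventional CD4 T cells, CD8 T cells and NK cells, and in myeloid cells for Havcr2. None of the 7 was used to assign cells to these types.

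Checkpoint receptors are surface proteins that can lower the response of T cells or NK cells once they bind a ligand on a neighbouring cell. The effect of each receptor in each cell type was not measured here. On tumour CD8 T cells they accumulate with lasting antigen exposure, and their joint presence is the usual mark of T cell exhaustion. Treg cells carry some of them constitutively, above all CTLA-4, and macrophages and dendritic cells carry TIM-3, the product of Havcr2.

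Pdcd1 encodes PD-1, which recruits the phosphatase SHP-2 to the T cell receptor complex, and its gene lies at chr1:94038305-94052553 on the minus strand of GRCm38. Ctla4, at chr1:60887000-60915832 on the plus strand, encodes CTLA-4, which competes with CD28 for CD80 and CD86. Havcr2, at chr11:46454935-46481255 on the plus strand, encodes TIM-3, a receptor for galectin-9, CEACAM1 and phosphatidylserine. Lag3, at chr6:124904361-124911705 on the minus strand, encodes a CD4-related receptor for MHC class II. Tigit, at chr16:43648867-43664146 on the minus strand, encodes a receptor for CD155 that competes with CD226. Cd160, at chr3:96798763-96829351 on the minus strand, encodes a receptor for HVEM and MHC class I molecules. Cd244a, at chr1:171559193-171609746 on the plus strand, encodes 2B4, the SLAM family receptor for CD48, and Ly9 (chr1:171588624-171607410) lies inside it on the other strand.

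The 250 bases before the start of Havcr2 and of Cd244a are shown because these were the members whose level in CD8 T cells differed between the genotypes, and because they were the only member promoters that held an AP-1 motif. AP-1 is a transcription factor family induced by T cell receptor signalling. The sequences come from RefSeq on GRCm38.p6, both on the plus strand, and capitals mark the match to TGANTCA, searched on both strands.
Havcr2 promoter, chr11:46454681-46454930: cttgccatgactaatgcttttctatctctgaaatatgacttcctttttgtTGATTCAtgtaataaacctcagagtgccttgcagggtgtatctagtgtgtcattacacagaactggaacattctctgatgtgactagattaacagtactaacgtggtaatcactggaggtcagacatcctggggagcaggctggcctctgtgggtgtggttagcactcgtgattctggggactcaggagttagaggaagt
Cd244a promoter, chr1:171558943-171559192: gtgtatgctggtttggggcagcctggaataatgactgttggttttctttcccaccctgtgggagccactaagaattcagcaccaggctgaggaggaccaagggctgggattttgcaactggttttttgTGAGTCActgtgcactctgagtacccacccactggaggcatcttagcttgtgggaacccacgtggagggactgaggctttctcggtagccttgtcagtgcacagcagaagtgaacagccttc
The match lay 200 bases before the RefSeq start in Havcr2 and 122 bases before it in Cd244a. TGANTCA occurred in 6.75% of the 32851 promoters of the same length, and 6 of the 7 members had a promoter entry. The NFAT core GGAAA occurred in the promoters of Cd160, Cd244a, Ctla4, Pdcd1 and Tigit and in 55.6% of all promoters. The CTCF core motif occurred in none of the member promoters and in 0.508% of all promoters. AP-1 and NFAT matches can share no base. The motifs were chosen after the values were seen, and a match is a description of the letters only.

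MC38 cells, a mouse colon adenocarcinoma line used unmodified, were grown under the skin, and tumours were taken 25 days after inoculation. Live CD45+ cells were sorted from them for droplet 5′ single-cell RNA sequencing with paired T cell receptor libraries. The control group, ctr, holds 3 samples from mice whose Treg cells kept intact Ctcf, and the knockout group, cko, holds 3 samples from mice with a tamoxifen-inducible deletion of Ctcf in Treg cells. CTCF is the zinc finger protein that organises chromatin loops. The sources used here do not name the Cre driver, the strain, sex and age of the mice or the tamoxifen schedule, nor whether ctr mice were given tamoxifen.

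The matrices held 6125 to 7577 barcodes and 45322797 to 55515267 unique molecular identifiers (UMIs) a sample, and 19532 ctr and 19892 cko cells passed the cell filter. Marker gates took 695 ctr and 353 cko Treg cells, 485 and 935 conventional CD4 T cells, 3915 and 6204 CD8 T cells, and 1389 and 690 NK cells. A T cell receptor beta contig was found in 80.0% to 91.9% of cells of each T cell gate, and the NK gate excluded cells that had one. The cko libraries 1 and 3 shared 197 T cell receptor clonotypes, which covered 82.0% and 69.8% of their receptor-bearing cells, while no other pair shared more than 3. Whether these libraries come from the same animal or hold some of each other's cells was not tested. In either case cko would hold fewer than 3 fully independent samples, and the n = 3, SDs and p-values for cko would overstate the replication. If both come from the same animal, cko would hold 2. The genotype tests and shares were therefore also computed with these libraries added into 1 sample. Libraries shared 41 to 81 cell barcodes a pair. Ctcf in the Treg gate was 77.2, 83.6 and 108 CPM (library-scaled counts) in ctr and 62.2, 69.0 and 60.1 in cko, a log2 difference of -0.48 (SE 0.18, edgeR adjusted p = 0.351). The cko Treg values lay below all ctr values, but the test was not passed, and 5′ reads need not cover the deleted part of the gene, so this value is no check of the deletion. Of the Foxp3-gated Treg cells, 1.80% to 7.01% a sample had no UMI of 5 other Treg markers.

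CPM values are UMIs summed over the gated cells of a sample and scaled by library size and TMM factors, and a gene passed the test where edgeR's quasi-likelihood test gave a Benjamini-Hochberg adjusted p under 0.05 over all genes tested. Sums of this kind count 5′ ends, so levels of different genes are not per length and are not compared with each other. The labels call the samples biological replicates without naming the animals, so a p-value measures the spread between these samples.

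In control tumours the receptors differed in the lymphocyte type that carried most of their transcripts. By their means Ctla4 and Tigit were highest in Treg cells, Pdcd1, Havcr2, Lag3 and Cd160 in CD8 T cells, and Cd244a in NK cells. The NK gate stood apart from the T cell gates for Pdcd1 and Havcr2, which were low there.

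**Figure D1:**
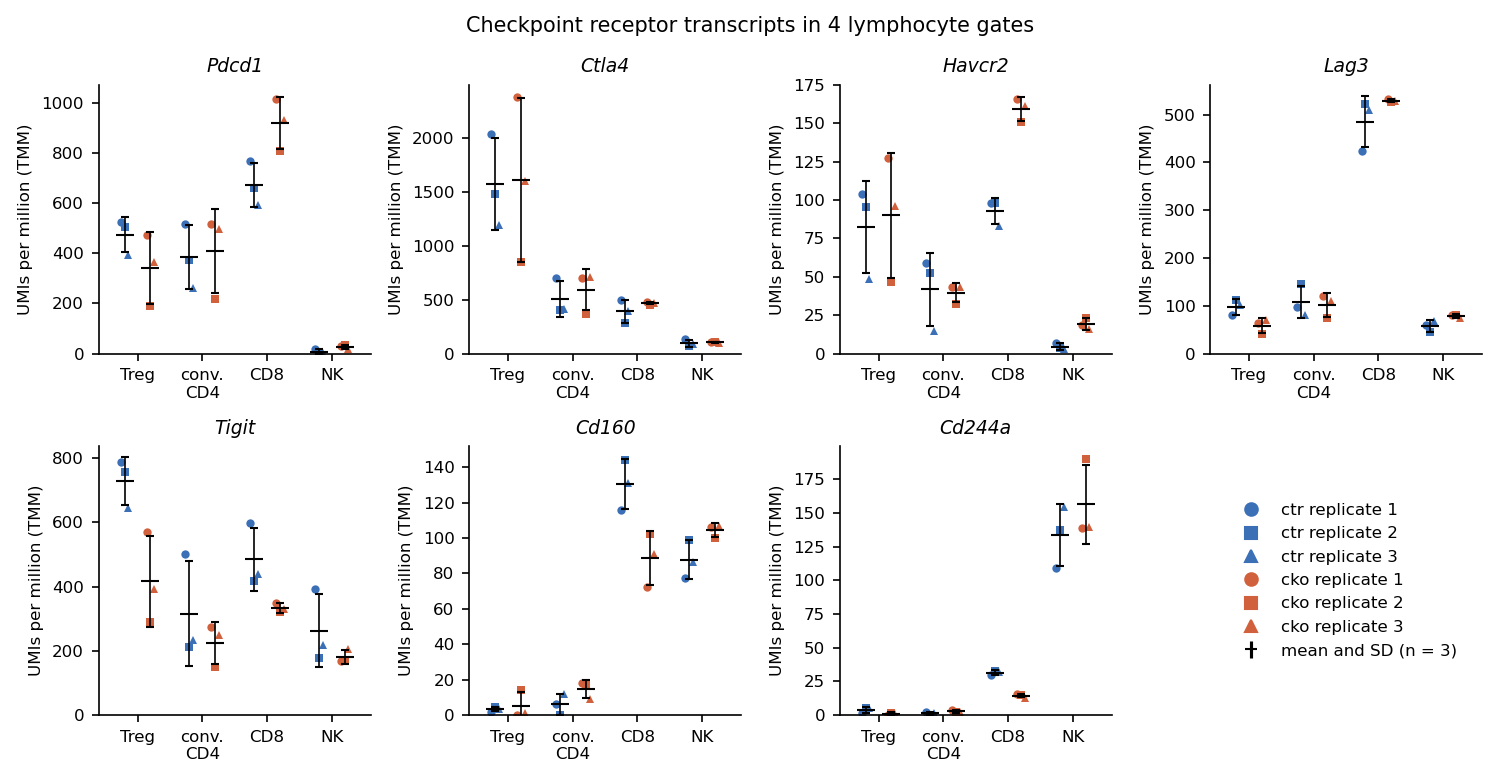
Levels of the 7 receptors in TMM-scaled CPM (vertical axes, one panel a gene) in the 4 lymphocyte gates, with a point for each of the 3 ctr and 3 cko samples and a bar for mean and SD. Ctla4 is highest in Treg cells in both genotypes, Cd244a in NK cells, and Lag3 in CD8 T cells.

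Ctla4 in ctr Treg cells was 2035, 1483 and 1195 CPM, a mean of 1571 ± 427 (SD, n = 3). It was 505 ± 168 CPM in conventional CD4 T cells, 392 ± 106 in CD8 T cells and 96.3 ± 31.6 in NK cells. Every ctr Treg value lay above every value of the other gates. Treg cells were 3.06-fold above conventional CD4 T cells (log2 1.61, SE 0.13, edgeR adjusted p = 6.71e-06) and above CD8 T cells (log2 1.89, SE 0.12, adjusted p = 1.55e-07). Conventional CD4 and CD8 T cells did not differ beyond their spread for Ctla4 (log2 0.27, SE 0.12, adjusted p = 0.150; 0.0127 without ctr replicate 3).

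Tigit in ctr was 787, 758 and 645 CPM in Treg cells, a mean of 730 ± 74.7. CD8 T cells had 485 ± 97.8 CPM, conventional CD4 T cells 316 ± 162 and NK cells 263 ± 113. Treg cells were above conventional CD4 T cells (log2 1.24, SE 0.24, edgeR adjusted p = 0.0179), a call that ended without ctr replicate 3 (adjusted p = 0.279). Tigit in CD8 T cells was above that in NK cells (log2 1.02, SE 0.22, adjusted p = 0.00945), a call that ended in the same way (0.156). Treg and CD8 T cells, and conventional CD4 and NK cells, were neighbours whose Tigit did not differ beyond the spread (adjusted p = 0.142 and 0.409). Without ctr replicate 1, whose Tigit was the highest of the 3 in every gate, the Treg and CD8 levels did differ (log2 0.60, adjusted p = 0.000268).

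Pdcd1 in ctr was 767, 660 and 591 CPM in CD8 T cells, 524, 506 and 394 in Treg cells and 516, 372 and 263 in conventional CD4 T cells. These 3 gates did not differ from one another (edgeR adjusted p = 0.134 to 0.694) with all samples. Without ctr replicate 1 each of the 3 contrasts passed (adjusted p = 1.87e-07 to 0.00515). In ctr NK cells Pdcd1 was 18.2, 3.13 and 2.18 CPM, below all T cell values. CD8 T cells exceeded NK cells at log2 6.52 (SE 0.49, adjusted p = 6.66e-05).

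Havcr2 in ctr was 98.2, 97.7 and 83.1 CPM in CD8 T cells, and 82.5 ± 29.9 CPM in Treg cells. Conventional CD4 T cells had 41.8 ± 23.8 CPM and NK cells 4.48 ± 2.29. CD8 and Treg cells did not differ (edgeR adjusted p = 0.296), nor did Treg and conventional CD4 T cells (log2 1.05, SE 0.34, adjusted p = 0.0915; 0.0292 without ctr replicate 3). CD8 T cells exceeded conventional CD4 T cells: conventional CD4 over CD8 gave a log2 difference of -1.40 (SE 0.31, adjusted p = 0.0117; 0.0865 without ctr replicate 2). Havcr2 in CD8 T cells was 21.8-fold above that in NK cells (log2 4.45, SE 0.29, adjusted p = 3.11e-06).

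Lag3 in ctr was 424, 521 and 510 CPM in CD8 T cells. It was 107 ± 33.8 CPM in conventional CD4 T cells, 97.9 ± 16.7 in Treg cells and 57.2 ± 12.0 in NK cells. CD8 T cells stood alone, 5.37-fold above Treg cells (log2 of Treg over CD8 -2.43, SE 0.20, edgeR adjusted p = 3.93e-05). Treg and conventional CD4 T cells did not differ in Lag3 (adjusted p = 0.876). Both CD4 gates passed against NK cells (adjusted p = 0.0286 for Treg and 0.0324 for conventional CD4 T cells), and neither did without ctr replicate 1 (0.0921 and 0.160).

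Cd160 in ctr was 116, 144 and 131 CPM in CD8 T cells and 77.4, 99.1 and 86.7 in NK cells, which did not overlap (log2 0.66, SE 0.11, edgeR adjusted p = 0.00012). Conventional CD4 T cells had 6.08 ± 6.06 CPM and Treg cells 3.37 ± 1.33. Cd244a in ctr was 109, 138 and 155 CPM in NK cells and 29.6, 32.6 and 32.2 in CD8 T cells (log2 of CD8 over NK -1.99, SE 0.11, adjusted p = 1.38e-12). Cd244a was 3.83 ± 2.19 CPM in Treg cells and 1.35 ± 1.24 in conventional CD4 T cells, where the counts are too few to order these gates (adjusted p = 0.272). Both genes passed as lower in each CD4 gate than in CD8 T cells and in NK cells.

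Counted over the 7 members in ctr, 2 differed between Treg and conventional CD4 T cells, where 11.2% of all genes did. Between Treg and CD8 T cells 4 differed (28.0% of all genes), between Treg and NK cells 7 (44.7%), and between conventional CD4 and CD8 T cells 4 (22.5%). Between conventional CD4 and NK cells 6 differed (38.1%) and between CD8 and NK cells 7 (38.0%). Of the CD8 and NK contrast, 6 members were higher in CD8 T cells, as were 18.6% of all genes, and Cd244a was lower, as were 19.4%.

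CD8 T cells, the largest lymphocyte gate, showed a split among the receptors between the genotypes: Havcr2 was higher and Cd244a lower in cko tumours. Of the 7 members these 2 passed the test, where 2.18% of the 11864 genes tested did, 1.17% higher and 1.01% lower. The cko and ctr values did not overlap for 6 of the 7 members, 3 higher (Pdcd1, Havcr2, Lag3) and 3 lower (Tigit, Cd160, Cd244a), where 25.0% of all genes had no overlap. The median log2 difference was 0.13 over the members and 0.00 over all genes tested.

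Havcr2 in CD8 T cells was 98.2, 97.7 and 83.1 CPM in ctr and 166, 151 and 161 in cko. The lowest cko value lay above the highest ctr value. Havcr2 rose 1.71-fold in cko (log2 0.78, SE 0.09, edgeR adjusted p = 0.0104). The log2 difference ran from 0.70 to 0.82 over the 14 alternative settings, and the call held in 13 of them. It ended without cko replicate 3 (log2 0.76, adjusted p = 0.0755), and the adjusted p was 0.0483 with cko replicates 1 and 3 added together.

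Cd244a in CD8 T cells was 29.6, 32.6 and 32.2 CPM in ctr and 15.7, 14.6 and 12.9 in cko. The highest cko value lay below the lowest ctr value, with little spread in either group. Cd244a fell by 1.13 in log2 terms (edgeR adjusted p = 0.00394, SE 0.11), and ctr was 2.18-fold above cko. The call held in all 14 alternative settings, with adjusted p up to 0.043. Ly9, the SLAM family gene inside Cd244a, had 25.1, 39.3 and 31.0 CPM in ctr CD8 T cells and 42.4, 39.2 and 39.9 in cko (log2 0.36, SE 0.15, adjusted p = 0.244), the opposite sign. The sources used here do not say whether reads were counted by strand.

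Cd160, Tigit and Pdcd1 did not pass, although none of the 3 overlapped between the genotypes. Cd160 in CD8 T cells was 116, 144 and 131 CPM in ctr and 72.3, 102 and 91.2 in cko (log2 -0.56, SE 0.14, edgeR adjusted p = 0.0796). Tigit was 597, 418 and 440 in ctr and 349, 319 and 330 in cko (log2 -0.54, SE 0.14, adjusted p = 0.0787), with ctr replicate 1 the highest. Pdcd1 was 767, 660 and 591 in ctr and 1015, 809 and 931 in cko (log2 0.45, SE 0.12, adjusted p = 0.0945), with cko replicate 2 the lowest of the cko values. DESeq2 called all 3 with the same signs (adjusted p = 0.0100 for Cd160, 0.00839 for Tigit and 0.0229 for Pdcd1). Without cko replicate 2 edgeR called Cd160 and Pdcd1 as well (adjusted p = 0.0294 and 0.0343).

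Lag3 in CD8 T cells was 424, 521 and 510 CPM in ctr and 533, 526 and 530 in cko, a difference of log2 0.13 that did not pass (edgeR adjusted p = 0.519). Ctla4 was 496, 284 and 397 in ctr and 477, 455 and 473 in cko, and here ctr replicate 1 lay above all cko values (log2 0.25, adjusted p = 0.498). For both genes the cko samples were closer to each other than the ctr samples were.

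Macrophages carry Havcr2 and some Cd244a, so their transcripts were measured in the CD8 gate, which itself limits them. C1qa, C1qb and C1qc together gave 23.0 to 51.4 CPM in ctr and 9.54 to 15.9 in cko CD8 sums. Scaled by C1q, macrophage transcripts would carry 0.231 to 0.561 CPM of Havcr2 in ctr and 0.398 to 0.446 in cko, against the measured 83.1 to 98.2 and 151 to 166. In the macrophage gate itself C1q was 8242 to 10377 CPM in ctr and 2845 to 3622 in cko. C1q does not trace myeloid cells with little or none of it, such as the conventional dendritic cells, whose gates required its absence. Their part in the CD8 values was not tested. Of the 12 monocyte and macrophage markers, the 11 other than Ly6c2 summed to 131 to 198 CPM in ctr and 130 to 159 in cko. Ly6c2, which memory CD8 T cells also express, was 904 to 1435 in ctr and 1529 to 2425 in cko.

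**Figure D2:**
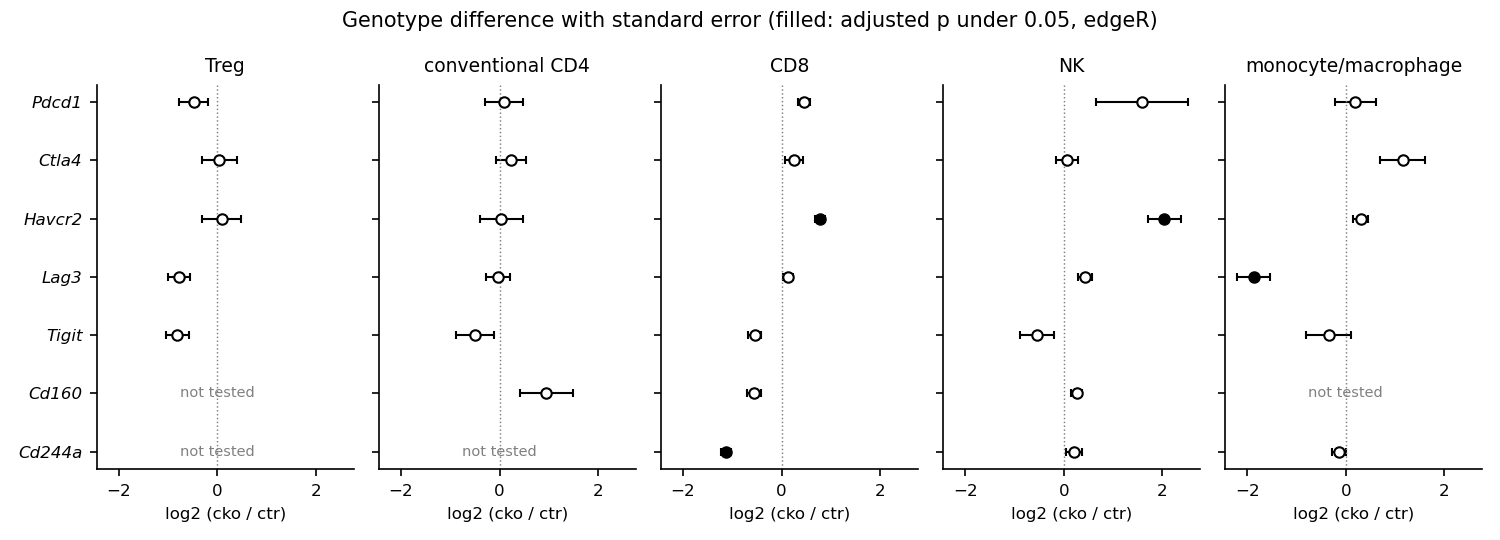
Log2 fold change of cko over ctr (horizontal axis) with its standard error for each receptor in the Treg, conventional CD4, CD8, NK and monocyte/macrophage gates, filled where the adjusted p was under 0.05. Havcr2 in CD8 and NK cells lies above 0, and Cd244a in CD8 T cells and Lag3 in monocytes and macrophages lie below 0, as filled points.

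In NK cells Havcr2 was higher in cko tumours from a low level, and it was the 1 member of 7 that passed, where 6.76% of the 9793 genes tested did. Havcr2 was 7.04, 3.75 and 2.65 CPM in ctr, from 44, 12 and 17 UMIs, and 18.9, 23.1 and 15.8 CPM in cko, from 36, 28 and 39 UMIs. The groups did not overlap. Havcr2 rose 4.12-fold (log2 2.04, SE 0.33, edgeR adjusted p = 0.00487), with log2 differences of 1.64 to 2.61 over the 14 alternatives, all of which passed (adjusted p up to 0.0403). Every cko NK value was still below every CD8 value of either genotype.

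The NK gates of the genotypes differed in depth, with a median of 8563 to 11451 UMIs a cell in ctr and 3713 to 6421 in cko. The transcripts of Cd3d, Cd3e and Cd3g in the NK gate, which admits at most 1 such UMI a cell, were 6.18 to 10.4 CPM in ctr and 12.4 to 16.4 in cko. Scaled by them, CD8 T cell transcripts would carry 0.135 to 0.184 CPM of Havcr2 in ctr NK cells and 0.464 to 0.574 in cko. Scaled by C1q, macrophage transcripts would carry 0.148 to 0.282 CPM in ctr and 0.290 to 0.492 in cko. As in the CD8 gate, this leaves out myeloid cells with little or no C1q, whose part was not tested. The 12 monocyte and macrophage markers summed to 562 to 816 CPM in ctr and 1135 to 1484 in cko NK cells, of which Ly6c2, also an NK cell gene, made up 157 to 344 and 667 to 948.

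Pdcd1 in NK cells was 18.2, 3.13 and 2.18 CPM in ctr and 28.8, 33.1 and 16.2 in cko. Control replicate 1 lay inside the cko range, and the difference did not pass (log2 1.60, edgeR adjusted p = 0.379). Without ctr replicate 1 it was 3.30 on the log2 scale with an adjusted p of 1.25e-05. Transcripts of CD8 T cells scaled by Cd3 would carry 0.910 to 1.38 CPM of Pdcd1 in ctr NK cells and 2.68 to 3.51 in cko.

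Lag3 in NK cells was 60.0, 44.1 and 67.5 CPM in ctr and 80.8, 80.2 and 74.2 in cko (log2 0.43, edgeR adjusted p = 0.0894). Cd160 was 77.4, 99.1 and 86.7 in ctr and 106, 100 and 107 in cko (log2 0.26, adjusted p = 0.178). Neither passed, although their groups did not overlap, which with Havcr2 made 3 of 7 members where 30.5% of all genes had no overlap. Cd244a, Ctla4 and Tigit overlapped between the genotypes in NK cells, with log2 differences of 0.21, 0.07 and -0.54 (adjusted p = 0.441, 0.878 and 0.396).

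The genotype difference itself was compared between CD8 and NK cells by an interaction term, a test added after the values were seen. It passed for 3 of 7 members, all more negative in CD8 T cells, where 2.79% of all genes passed. For Cd244a the CD8 effect minus the NK effect was -1.34 (SE 0.15, edgeR adjusted p = 0.000204), with lower cko values in CD8 T cells and overlapping values in NK cells. For Cd160 it was -0.83 (SE 0.14, adjusted p = 0.00388), with CD8 T cells above NK cells in ctr, while in cko CD8 T cells had 88.6 ± 15.2 CPM and NK cells 104 ± 3.80, which overlapped and did not differ (log2 -0.17, SE 0.28, adjusted p = 0.698). For Havcr2, higher in cko in both gates, it was -1.24 (SE 0.28, adjusted p = 0.0327), which did not pass with cko replicates 1 and 3 added together (0.0855).

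In Treg cells, the cells targeted by the deletion, none of the 5 members with enough counts passed edgeR's test or DESeq2's, and 2 had an unadjusted edgeR p under 0.05, Lag3 and Tigit. Of all 8864 genes tested in Treg cells 0.62% passed. Lag3 and Tigit were also the members whose groups did not overlap, both lower in cko, where 16.8% of all genes had no overlap. Ctla4, the receptor that marks these cells most, spanned a wider range among cko samples than between the group means.

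Tigit in Treg cells was 787, 758 and 645 CPM in ctr and 569, 288 and 394 in cko (log2 -0.82, SE 0.23, edgeR adjusted p = 0.171). Lag3 was 79.8, 113 and 101 in ctr and 63.7, 41.0 and 70.0 in cko (log2 -0.78, SE 0.23, adjusted p = 0.182). Pdcd1 was 524, 506 and 394 in ctr and 471, 189 and 365 in cko (log2 -0.49, SE 0.29, adjusted p = 0.627). In all 3 genes cko replicate 2 had the lowest value. When Treg cells were gated on summed Treg markers instead of Foxp3, Tigit passed (log2 -1.05, adjusted p = 0.0132), and without a filter on low counts both Tigit and Lag3 passed (0.0122 and 0.0220).

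Ctla4 in Treg cells was 2035, 1483 and 1195 CPM in ctr and 2380, 852 and 1598 in cko (log2 0.03, edgeR adjusted p = 0.993). Havcr2 was 104, 95.3 and 48.4 in ctr and 127, 46.6 and 96.2 in cko (log2 0.08, adjusted p = 0.971). Both genes overlapped fully, with cko replicate 2 again lowest.

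Cko replicate 2 also stood apart in the markers of its Treg gate. The Treg markers summed to 2566 CPM there against 4107 to 4885 in the other 5 samples, and the T cell markers to 3227 against 4370 to 5034. Without it the log2 differences in Treg cells were -0.56 for Tigit, -0.51 for Lag3 and -0.14 for Pdcd1 (edgeR adjusted p = 0.0808, 0.210 and 0.719). Monocyte and macrophage markers in the Treg gate summed to 209 to 266 CPM in ctr and to 179 in cko replicate 2 but 492 and 494 in cko replicates 1 and 3, and their part in these values was not tested.

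Cd160 and Cd244a were too rare in Treg cells to test. Cd160 had 3, 9 and 7 UMIs in ctr and 0, 23 and 1 in cko, and Cd244a 2, 10 and 10 in ctr and 0, 3 and 1 in cko. The 23 UMIs of Cd160 in cko replicate 2, at 14.3 CPM, were the highest Treg value of that gene.

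In conventional CD4 T cells none of 6 members passed edgeR's test or DESeq2's, none had an unadjusted edgeR p under 0.05, and 0.0346% of the 8671 genes tested passed. No member had groups without overlap, against 12.3% of all genes. Tigit was 503, 211 and 234 CPM in ctr and 274, 149 and 250 in cko (log2 -0.50, edgeR adjusted p = 0.902). Pdcd1 was 516, 372 and 263 in ctr and 517, 217 and 497 in cko, and Ctla4 698, 401 and 415 in ctr and 700, 370 and 709 in cko. Cko replicate 2 was the lowest cko sample for Pdcd1, Havcr2, Lag3, Tigit and Ctla4 here too. Cd160 was 6.12, 0 and 12.1 in ctr and 18.2, 17.5 and 9.08 in cko (adjusted p = 0.845).

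The genotype effects of Treg and conventional CD4 T cells were compared by an interaction term, and none of 6 members passed edgeR's test or DESeq2's, where 1.24% of all genes passed edgeR's. Pdcd1 and Lag3 had an unadjusted edgeR p under 0.05. Pdcd1 came closest, with a Treg effect minus conventional CD4 effect of -0.57 (SE 0.15, edgeR adjusted p = 0.0541), and it passed without ctr replicate 1 (-0.76, adjusted p = 0.0103), as did Tigit (-0.72, 0.0256). Ctcf passed the same test at -0.80 (adjusted p = 0.0286). Between Treg and CD8 T cells 1 of 7 members passed, Lag3, where 1.55% of all genes did. The Treg effect of Lag3 minus its CD8 effect was -0.91 (SE 0.18, adjusted p = 0.0174). This call held in 10 of 14 alternatives, with adjusted p from 1.75e-05 to 0.0988. It ended where ctr replicate 2 was left out (0.0988), and likewise for ctr replicate 3 (0.0890) and cko replicate 1 (0.0527). It also ended with T cells limited to those with a beta contig (0.0803). Pdcd1 had the larger value, -0.99, and did not pass (SE 0.23, adjusted p = 0.0735; 0.000424 without cko replicate 2).

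Myeloid cells were the other large source of Havcr2. Monocytes and macrophages had 112, 80.7 and 79.6 CPM of Havcr2 in ctr and 106, 128 and 102 in cko, as much as ctr CD8 T cells by value. Control replicate 1 lay inside the cko range, and the difference did not pass (log2 0.30, edgeR adjusted p = 0.177; 0.48 and 0.0121 without ctr replicate 1). In this gate 1 of 6 tested members passed, Lag3, which was lower, where 19.6% of the 11224 genes tested passed.

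Conventional type 1 dendritic cells, the cross-presenting subset, had 103, 93.6 and 95.2 CPM of Havcr2 in ctr and 101, 107 and 116 in cko, from 18 to 41 cells a sample. Conventional type 2 dendritic cells had 137, 72.0 and 92.6 in ctr and 152, 31.4 and 72.3 in cko, a spread that comes with 14 to 66 cells. Mature dendritic cells had 3.85 to 45.9 CPM in ctr and 4.59 to 23.4 in cko, lower than the other dendritic gates in every sample. Neutrophils had 1, 0 and 0 UMIs of Havcr2 in ctr, from 37, 3 and 13 cells, and 9, 10 and 3 in cko, from 60, 55 and 49 cells. No test was run on the dendritic and neutrophil gates, whose values are plain CPM.

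**Figure D3:**
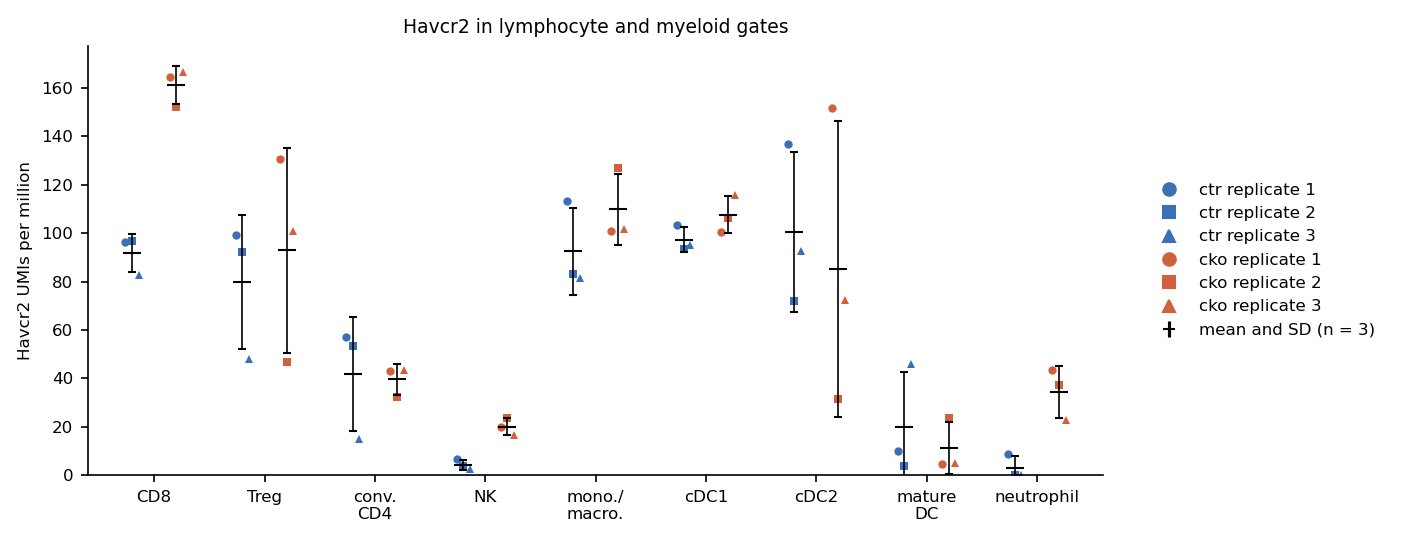
Havcr2 in plain CPM (vertical axis) in the 4 lymphocyte and 5 myeloid gates, with points for the samples and bars for mean and SD, cut at 0. All CD8, monocyte/macrophage and type 1 dendritic cell samples lie above all NK samples.

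Lag3 in monocytes and macrophages was low and lower in cko. It was 7.89, 6.26 and 13.3 CPM in ctr, from 95, 152 and 224 UMIs, and 2.42, 1.72 and 3.00 CPM in cko, from 20, 10 and 34 UMIs. The groups did not overlap, as for 39.7% of all genes in this gate. Lag3 fell by 1.87 in log2 terms (edgeR adjusted p = 0.00727, SE 0.34), and the call held in all 13 alternatives run (adjusted p up to 0.0424). Scaled by Cd3, CD8 T cell transcripts would carry 0.639 to 1.53 CPM of Lag3 in this gate in ctr and 1.04 to 1.69 in cko, against the measured 6.26 to 13.3 and 1.72 to 3.00. The gate itself admits at most 1 Cd3 UMI a cell and no beta contig, which limits the scaled values. The part of T cell transcripts in this Lag3 was not tested.

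Shares of cells with at least 1 UMI of a receptor were taken after thinning every cell to 2500 UMIs, since deeper cells show more genes. In CD8 T cells Havcr2 was detected in 17.4%, 17.7% and 15.0% of ctr cells and in 27.6%, 26.3% and 27.9% of cko cells. Cd244a was detected in 6.46%, 7.14% and 7.57% of ctr cells and 3.09%, 4.12% and 2.64% of cko cells. Both follow the direction of the sums, without overlap. Before thinning, the mean shares were 37.8% and 53.6% for Havcr2 and 20.02% and 10.1% for Cd244a, in ctr and cko. An exact two-sided permutation test gives p = 0.1 for each, the smallest value 3 against 3 samples allow, and 0.2 adjusted over the 28 member and gate pairs. With cko replicates 1 and 3 as 1 sample the same exact permutation test gives p = 0.2, the smallest value 3 against 2 allow.

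Ctla4 was detected in 53.5%, 35.2% and 42.5% of ctr CD8 T cells and 55.3%, 56.5% and 57.3% of cko cells, without overlap, although its summed level overlapped. Cd160 was detected in 19.6%, 23.97% and 22.1% of ctr and 10.4%, 16.6% and 13.6% of cko CD8 T cells, and Tigit in 72.0%, 59.7% and 58.7% of ctr and 50.3%, 54.6% and 53.2% of cko cells. Pdcd1, in 61.8% to 71.9% of ctr and 71.6% to 77.9% of cko cells, and Lag3, in 57.2% to 63.4% and 57.9% to 61.2%, overlapped. In ctr monocytes and macrophages the mean shares were 1.05% for Pdcd1, 0.571% for Tigit and 0.0807% for Cd160. Median UMIs in this gate were 6128 to 8441 a cell before thinning, over both genotypes. Whether these shares are background or expression was not tested.

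In Treg cells Pdcd1 was detected in 62.1%, 57.3% and 49.6% of ctr and 43.7%, 31.2% and 41.3% of cko cells, Lag3 in 17.9%, 20.5% and 17.1% and 12.6%, 10.4% and 9.62%, and Tigit in 80.0%, 71.4% and 72.5% and 70.1%, 45.8% and 57.7%. All 3 receptors were lower in every cko sample, and none was higher. In NK cells thinned to 2500 UMIs the shares of Pdcd1, Havcr2, Ctla4 and Cd160 were higher in every cko sample, but only that of Pdcd1 was so at every depth tried. At 1000 UMIs those of Havcr2, Ctla4 and Cd160 overlapped. Unthinned, Ctla4 overlapped and Cd160 turned around, from 39.8% ± 2.66 in ctr to 32.9% ± 2.09 in cko, so no order is read from the Cd160 shares. NK shares of Havcr2 were 1.48%, 0.403% and 0.392% in ctr and 4.27%, 5.77% and 2.67% in cko, and those of Pdcd1 1.90%, 1.21% and 0.588% and 2.44%, 5.77% and 3.56%. The Pdcd1 shares in ctr NK cells lay on both sides of its mean share in monocytes and macrophages. Unthinned NK shares of Havcr2 were 3.39% ± 1.78 in ctr and 6.58% ± 0.438 in cko. Thinning left out 158 of 1389 ctr and 197 of 690 cko NK cells, those with fewer UMIs. Shares without overlap were found for 3 of 7 members in Treg cells, 2 in conventional CD4 T cells, 5 in CD8 T cells and 4 in NK cells. Of all genes tested, 16.2%, 11.6%, 22.2% and 16.0% had thinned shares without overlap in these gates. The 14 such pairs of member and gate, 8 higher and 6 lower in cko, became 8 at 1000 UMIs. The 2 in conventional CD4 T cells rest on few cells. Cd160 was detected in 2, 0 and 3 ctr and 6, 8 and 7 cko cells, and Cd244a in 0, 0 and 0 and 2, 1 and 1. Cd244a had too few counts to be among the genes tested in that gate. Unthinned in the same cells, its shares were 1.42%, 0% and 0.483% in ctr and 1.82%, 0.358% and 0.962% in cko, which overlapped.

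**Figure D4:**
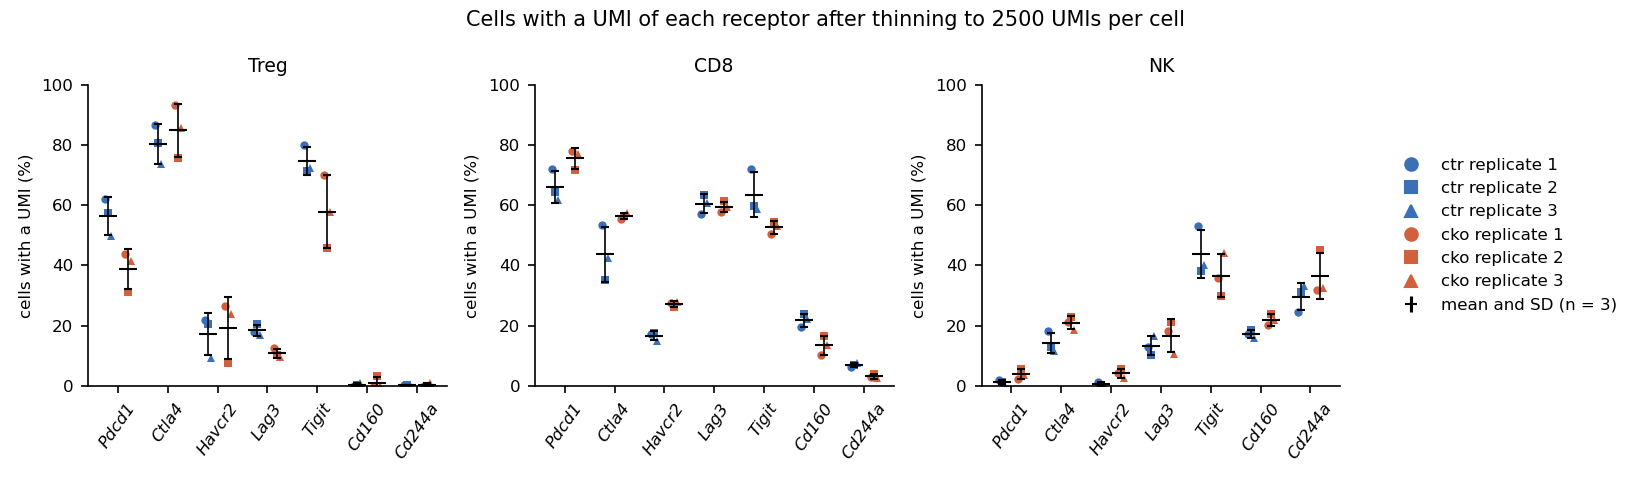
Percent of cells with at least 1 UMI of each receptor (vertical axis) after thinning to 2500 UMIs a cell, in Treg, CD8 and NK cells, with a point for each sample and a bar for mean and SD. In CD8 T cells the cko points for Havcr2 lie above the ctr points and those for Cd160 and Cd244a below, and in Treg cells the cko points for Pdcd1, Lag3 and Tigit lie below.

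The number of receptors seen in the same cell was similar between the genotypes in CD8 T cells. A thinned CD8 T cell had UMIs of 2.98, 2.72 and 2.68 of the 7 receptors on average in ctr and 2.82, 2.91 and 2.91 in cko. Treg cells had 2.69, 2.51 and 2.24 in ctr and 2.46, 1.74 and 2.19 in cko, conventional CD4 T cells 1.83, 1.38 and 1.16 and 1.77, 1.01 and 1.70, and NK cells 1.29, 1.13 and 1.19 and 1.34, 1.55 and 1.34. Cells with 3 or more receptors made up 61.0%, 55.5% and 43.4% of ctr and 46.0%, 24.3% and 36.5% of cko Treg cells, which overlapped (exact permutation p = 0.2). Once cko replicates 1 and 3 were counted as 1 sample, the Treg shares no longer overlapped (means of 53.3% and 32.6%, exact permutation p = 0.2, the smallest 3 against 2 allow). In NK cells they made up 8.67%, 7.26% and 8.04% of ctr and 15.9%, 17.3% and 10.7% of cko cells, without overlap (exact permutation p = 0.1, the smallest possible). This direction holds at 2500 UMIs: at 1000 UMIs the means were 1.16% in ctr and 1.46% in cko with overlap, and unthinned they were 51.1% and 39.1%, lower in every cko sample.

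**Figure D5:**
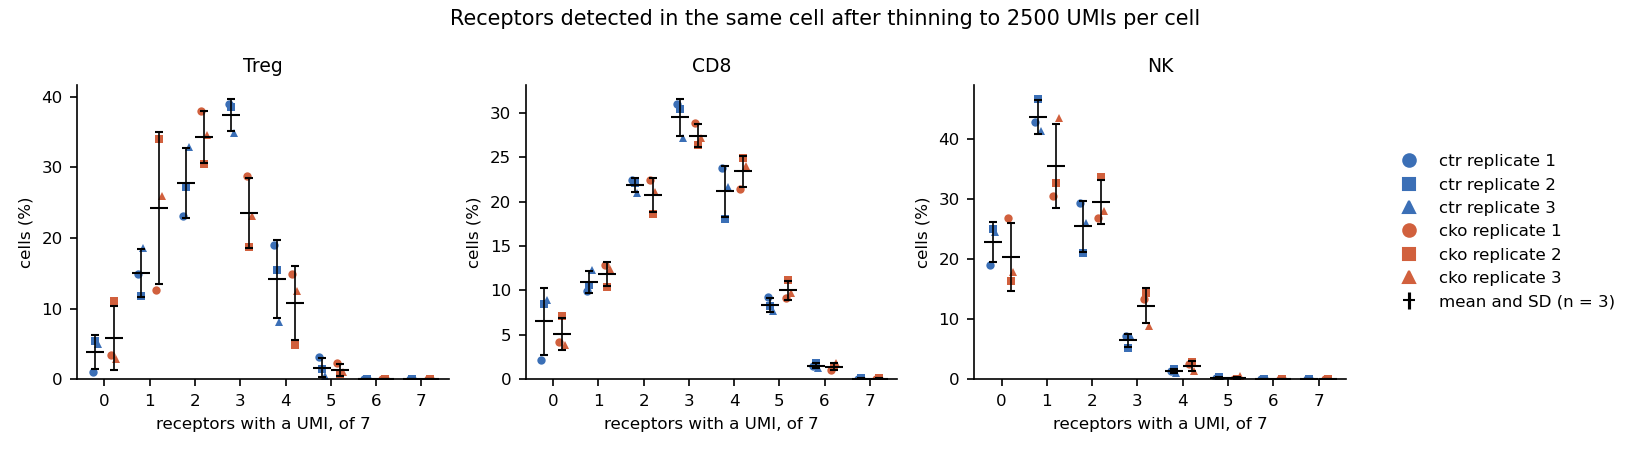
Percent of cells (vertical axis) by the number of the 7 receptors with a UMI in the same thinned cell (horizontal axis), in Treg, CD8 and NK cells, with a point for each sample and a bar for mean and SD. On average CD8 T cells peak at 3 receptors and NK cells at 1 in both genotypes, and Treg cells at 3 in ctr and 2 in cko.

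Pairs of receptors were compared within each sample by the share of cells with 1 receptor among cells with and without the other. In CD8 T cells 11 of the 21 pairs were seen together more often in all 6 samples: all 10 pairs among Pdcd1, Havcr2, Lag3, Tigit and Ctla4, and Tigit with Cd244a. Lag3 was detected in 72.3%, 76.7% and 72.4% of ctr CD8 T cells with a Havcr2 UMI against 54.0%, 60.6% and 58.6% of those without, and in 67.8%, 72.9% and 70.5% against 54.1%, 57.1% and 54.9% in cko. Cd160 was in none of these 11 pairs. In conventional CD4 T cells 7 pairs, in Treg cells 4 and in NK cells 1 (Ctla4 with Lag3) were seen together more often in all 6 samples, from fewer cells. The share of other gene pairs seen together in this way was not counted, so these counts are not read as particular to the receptors. The cko libraries with shared clonotypes count separately here, so the 6 samples may not all be independent.

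The T cell receptor libraries give a split of CD8 T cells that uses no receptor of this list. Cells of clonotypes with 3 or more cells in the sample, 632 to 1275 in ctr and 1109 to 1750 in cko, were set beside cells of clonotypes with 1 cell, 92 to 168 and 120 to 154. Havcr2 was 104, 102 and 90.8 CPM in expanded ctr clonotypes against 41.0, 39.8 and 25.3 in single ones, and 174, 169 and 183 against 58.7, 57.1 and 48.4 in cko. Pdcd1 was 792, 702 and 657 against 350, 461 and 214 in ctr and 1079, 916 and 1036 against 449, 328 and 388 in cko. Lag3 was 455, 556 and 582 against 152, 164 and 123 in ctr and 570, 602 and 602 against 164, 190 and 212 in cko. These 3 receptors were higher in expanded clonotypes in 6 of 6 samples, and so were Tigit, Ctla4 and Cd244a. The share of all genes with this order was not counted, so it is not read as particular to the receptors. Tigit had means of 524 CPM in expanded against 223 in single ctr clonotypes, and 361 against 199 in cko. Ctla4 had means of 412 against 195 in ctr and 504 against 282 in cko. Of the samples, cko replicates 1 and 3 share clonotypes that cover most of their receptor-bearing cells.

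Cd160 went the other way, with 109, 140 and 127 CPM in expanded against 176, 164 and 138 in single ctr clonotypes, and 70.6, 104 and 94.9 against 98.6, 134 and 129 in cko, lower in expanded clonotypes in 6 of 6 samples. Cd244a within expanded clonotypes was 32.2, 35.6 and 36.1 CPM in ctr and 16.1, 16.2 and 14.4 in cko, without overlap. In single clonotypes Cd244a was 15.3, 6.63 and 16.9 CPM in ctr and 9.97, 3.32 and 3.56 in cko. There the cko mean was also lower, 5.62 against 12.9, although the values overlapped. The values are plain CPM, described without a test.

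The ligands, paired or competing receptors and intracellular partners of the 7 receptors were counted from lists of 11, 5 and 6 genes. In CD8 T cells, where 2.18% of all genes passed, 2 of 9 tested ligands were higher in cko: Cd80, a ligand of CD28 and CTLA-4 (log2 0.64, edgeR adjusted p = 0.0231), and Ceacam1, a TIM-3 ligand (log2 3.23, adjusted p = 0.0266). Of the paired or competing receptors 1 of 5 was higher, Icos, the inducible costimulator. It had 280, 190 and 215 CPM in ctr and 473, 410 and 436 in cko (log2 0.94, edgeR adjusted p = 0.0175). None of 6 intracellular partners passed, and 2 of them had an unadjusted edgeR p under 0.05.

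In NK cells, where 6.76% of all genes passed, 1 of 7 tested ligands was higher, Pdcd1lg2, which encodes PD-L2 (log2 0.59, edgeR adjusted p = 0.0262). Of the paired or competing receptors 1 of 4 was higher, Cd226, the activating counterpart of TIGIT (log2 0.85, edgeR adjusted p = 0.0299). In Treg and conventional CD4 T cells no gene of the 3 lists passed edgeR's test. The counts at an unadjusted p under 0.05 were 2 in Treg cells and 3 in conventional CD4 T cells.

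In monocytes and macrophages 7 of 10 tested ligands passed. Cd274 (PD-L1, log2 0.85), Pdcd1lg2 (1.90), Cd80 (1.28) and Pvr (CD155, the TIGIT ligand, 0.59) were higher in cko. Nectin2, Lgals9 (galectin-9) and Cd48, the ligand of 2B4, were lower (log2 -0.52, -0.43 and -0.37). Of all genes in this gate 10.4% were higher and 9.19% lower.

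The genes beside the receptors on the chromosomes were read in Treg cells, the cells targeted for deletion of Ctcf. The nearest tested neighbours on each side of the 7 members had edgeR adjusted p from 0.170 to 0.999. Cd28, on the lower side of Ctla4, had a log2 difference of 0.62 (SE 0.18, adjusted p = 0.170), and Icos, on its other side, of 0.41 (adjusted p = 0.594). Cd4 and Ptms, beside Lag3, had -0.11 and 0.25 (adjusted p = 0.910 and 0.850).

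The genes whose level followed each receptor most closely over the 24 sums of sample and lymphocyte gate were found by Pearson's r of log2 CPM among 8159 genes. The sums share samples, depth and gates, so r is a description. Cd3g, named below, is itself a marker that set the gates. Pdcd1 was closest to Cxcr6 (0.96), Cd3g and Uhrf2, Havcr2 to Agpat4 (0.94), Pdcd1 (0.92) and Mkrn2, and Lag3 to Armc7 (0.94), Dgkh and Cx3cr1. Tigit was closest to Itgav (0.92), Traf4 and Serpina3f, and Ctla4 to Dennd5a (0.96), Sytl1 and Ttc39c. Cd160 was closest to 5430416N02Rik (0.94), Magohb and Gm36723, and Cd244a to Cers6 (0.96), Arsb and Tm6sf1. Among the members, Cd160 and Cd244a had r = 0.86, and Ctla4 and Cd244a r = -0.85.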

How the data were processed

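Droplet 5′ RNA and T cell receptor libraries of 3 ctr and 3 cko samples were used. The deposited values are unnormalised UMI counts, 1 matrix a sample, made by the authors with Cell Ranger 7.0.0 on the mouse GRCm38 build, per the submitters' processing notes. The receptors and gene lists were chosen with earlier results of these data known, and the gate thresholds after the marker distributions were seen. A cell was kept if it had 300 or more genes, 500 or more UMIs and no more than 10% mitochondrial UMIs. No doublet caller was run; gates removed cells with markers of another lineage, and 1 alternative left out the 5% of cells with most UMIs. T cells had 3 or more Cd3 UMIs. CD8 T cells had 3 or more Cd8a and Cd8b1 UMIs and no Cd4. Treg cells had a Foxp3 UMI and at most 1 CD8 UMI. Conventional CD4 T cells had Cd4 and no Foxp3, Ikzf2, Il2ra, Ikzf4, Lrrc32 or Gpr83. NK cells had 3 or more NK marker UMIs, at most 1 Cd3 UMI and no beta contig, and may include other innate lymphocytes. Monocytes and macrophages had marker transcripts above a fixed share of their UMIs. Counts were summed per sample and gate and tested with edgeR 4.0.16 (R 4.3.3; TMM, filterByExpr, robust quasi-likelihood, Benjamini-Hochberg), with the sample as a block where gates were compared. The pipeline was tested on simulated data. Of simulated 2-fold changes between the genotypes, edgeR called 16.7% in Treg cells and 68.2% in CD8 T cells. Of 1.5-fold changes it called 4.48% and 34.3%, and of 4-fold changes 92.3% and 93.9%. A gene that did not pass in Treg cells may therefore still differ by 2-fold. Alternatives were DESeq2 1.42.0, other scaling, no filter, other gates and leaving out libraries. Intervals and SEs cover these samples only. All 7 receptors were named whatever their result, with Ctcf, the listed pathway genes that passed and the 3 genes most like each receptor. Gene positions are from GENCODE M21, in which 32158 identifiers were found. The numbers of the replicates did not pair the samples.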

Additional observations from a re-analysis of the deposited data

Results flagged for a closer look

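The genotype effect of Lag3 differed between Treg and CD8 T cells by edgeR's interaction test (-0.91 on the log2 scale), and between Treg and NK cells its direction was opposite. Every cko Treg sample lay below every ctr Treg sample and every cko NK sample above every ctr NK sample, a difference of effects of -1.22 that was not tested.

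Between CD8 and NK cells the genotype effects differed by the same kind of test for Cd244a (-1.34), Cd160 (-0.83) and Havcr2 (-1.24). This test was added after the values were seen. Havcr2 did not pass it with cko replicates 1 and 3 added together (edgeR adjusted p = 0.0855). By CPM, Cd160 was lower in every cko sample in CD8 T cells and higher in every cko sample in NK cells. Neither Cd160 difference passed edgeR's test within its gate, and the NK share of Cd160 turned around unthinned. Havcr2 was higher in cko in both, with the greater fold in NK cells, whose ctr level was 4.48 ± 2.29 CPM (SD, n = 3).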

How the results depend on the processing

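Of the counts of receptors that passed, the following moved by more than 1.5 times. In Treg cells, where none passed, 2 passed with no filter on low counts and 1 with Treg cells gated on summed markers. In CD8 T cells, where 2 passed, 5 did with DESeq2 and 5 with no filter, and 1 to 4 when a library was left out (1 without cko replicate 3). In NK cells, where 1 passed, 2 did with no filter and 1 to 2 without a library (2 without ctr replicate 1). In monocytes and macrophages, where 1 passed, 2 did with DESeq2 and 1 to 3 without a library (3 without ctr replicate 1). With no filter, 4 in place of 2 differed between ctr Treg and conventional CD4 T cells and 7 in place of 4 between Treg and CD8 T cells. Of the genotype effects compared between Treg and conventional CD4 T cells, none passed, against 1 with upper-quartile scaling, 2 with no filter, 1 with beta contigs required, 1 without the cells of most UMIs and 0 to 2 without a library. Between Treg and CD8 T cells 1 passed, against 2 with DESeq2, 4 with no filter, 0 with beta contigs required, 4 with summed markers, 2 without the cells of most UMIs and 0 to 2 without a library. Shares of cells had no overlap in 14 pairs, against 8 when thinned to 1000 UMIs; for cells with 3 or more receptors 1 gate had none, against 2 unthinned, 0 at 1000 UMIs, 2 with cko replicates 1 and 3 added together and 1 to 2 without a library. Unthinned, the NK differences reversed to -6.98 percentage points for Cd160 and -11.95 for cells with 3 or more receptors. Unthinned but limited to the cells that thinning keeps, a check added after the values were seen, they were -0.0217 and -3.38, so both the cells left out and the depth of those kept move these shares. Same-numbered samples did not deviate together (correlations -0.12 to 0.17). With the replicate number as a block, Cd160 in CD8 T cells passed (log2 -0.57, edgeR adjusted p = 0.0314), making 3; in the genotype tests within gates, where it was run, the block changed no other call. Except where stated, the cause was not tested. With 3 samples a group, the low counts of Treg cells and the shared clonotypes of 2 cko libraries limit what can be called.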
